A study of Mus musculus with 30 samples.

Results

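The 63 genes bear symbols of cytosolic ribosomal proteins, 24 of the small subunit (with the transcribed pseudogene Rps4l) and 39 of the large one. They were taken as every transcript cluster of the array whose annotated symbol names a protein of the small subunit (Rps with a number, or Rpsa) or of the large subunit (Rpl with a number, or Rplp0, Rplp1 or Rplp2), with 1 cluster per gene, out of 22103 clusters in all. RefSeq lists 89 mouse symbols of that form; 26 of them, among them Rplp2, Rps27a and Rpl13a, were not analysed here. The cells came from the brains of male C57BL/6 mice, 8 to 10 weeks old, whose middle cerebral artery was occluded for 45 min and then reopened, a model of ischemic stroke; cells were collected 48 h later. Mice were TREM1+/+ (WT) or TREM1-/- (KO); TREM1 is a receptor of myeloid cells that amplifies inflammatory signals, and the comparison of genotypes asks what its loss changes in each cell type. Of the 30 arrays, 9 were of neutrophils (4 WT, 5 KO), 9 of macrophages (3 WT, 6 KO) and 12 of microglia (6 WT, 6 KO). All mice had the occlusion, so no group shows the uninjured brain. The neutrophil gate was CD45Hi, CD11b+ and Ly6G+. Macrophages differed from it by being Ly6G-. Microglia were CD45Lo and CD11b+, and the labels give their gate as Ly6G+ too. The labels call the arrays biological replicates without saying whether animals were pooled, so the p-values measure the spread between these samples.

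A ribosome is built from ribosomal RNA and usually a single copy of each ribosomal protein, the small subunit reading the messenger RNA and the large subunit joining amino acids. Cells make these proteins in step with each other, largely by controlling the translation of their messengers, which begin with a run of pyrimidines at the 5′ end and are held back or released by mTOR signalling through LARP1. Neutrophils reach the tissue as short-lived cells that have finished most of their growth in the bone marrow, whereas microglia and infiltrating macrophages go on making protein in injured brain.

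Each cell type was read against its own markers. The mean log2 intensity of 9 neutrophil markers was 12.61 to 16.3 on neutrophil arrays and 6.36 to 10.38 on all others. For 9 monocyte and macrophage markers it was 15.01 to 15.52 on macrophage arrays and 8.18 to 12.88 elsewhere, and for 9 microglia markers 13.72 to 14.77 on microglia arrays and 8.70 to 10.57 elsewhere. The values above 7.25 for neutrophil markers in microglia came from KO microglia 2 (10.38) and KO microglia 4 (8.22). Trem1 itself was still read on the KO arrays, at 15.98 ± 0.51 (SD, n = 5) in KO against 17.20 ± 0.29 (n = 4) in WT neutrophils, a fall that passed the test (limma, adjusted p = 0.0361). It did not pass in macrophages (-0.49, SE 0.44, adjusted p = 0.998) or microglia (adjusted p = 1). The change in microglia, -1.25 (SE 0.36), was nevertheless of similar size to that in neutrophils, -1.22 (SE 0.41). The deleted part of the gene is not given in the sources used here, so its cluster may lie outside that part.

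Promoter sequences were matched by symbol in RefSeq (GRCm38.p6), which gave a window of 250 bases before to 50 bases after the start of transcription for 50 of the 63 genes. The 9 printed here run from 80 bases before to 30 bases after the start and belong to genes on which the results below turn: Rpl11, Rpl23 and Rps28 for the change with genotype, Rps19, Rps13, Rps9 and Rpl39l for the differences between cell types, and Rps16 and Rps25 for having hardly varied. They were chosen after the values were seen. Capitals mark CCGGAAG, the core bound by ETS family factors, on either strand, and unbroken runs of at least 7 bases C or T within 30 bases of the start.
Rpl11: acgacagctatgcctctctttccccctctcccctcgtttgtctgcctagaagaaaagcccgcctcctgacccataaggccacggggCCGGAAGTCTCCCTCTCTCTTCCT
Rpl23: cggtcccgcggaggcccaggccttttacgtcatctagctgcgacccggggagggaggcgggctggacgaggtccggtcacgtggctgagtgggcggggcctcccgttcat
Rps28: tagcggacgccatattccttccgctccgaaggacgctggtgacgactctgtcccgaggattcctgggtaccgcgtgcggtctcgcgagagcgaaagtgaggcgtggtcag
Rps19: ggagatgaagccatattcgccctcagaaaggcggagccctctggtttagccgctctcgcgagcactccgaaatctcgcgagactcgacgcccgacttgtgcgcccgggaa
Rps13: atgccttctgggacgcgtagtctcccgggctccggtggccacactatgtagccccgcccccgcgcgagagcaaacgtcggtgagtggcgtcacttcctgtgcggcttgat
Rps16: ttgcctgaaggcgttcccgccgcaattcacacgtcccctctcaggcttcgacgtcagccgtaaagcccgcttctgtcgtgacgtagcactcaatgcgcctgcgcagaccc
Rps25: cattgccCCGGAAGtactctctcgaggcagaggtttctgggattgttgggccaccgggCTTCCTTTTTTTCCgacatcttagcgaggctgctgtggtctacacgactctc
Rps9: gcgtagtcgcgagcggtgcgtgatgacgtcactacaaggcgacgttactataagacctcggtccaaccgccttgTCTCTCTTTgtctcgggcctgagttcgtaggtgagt
Rpl39l: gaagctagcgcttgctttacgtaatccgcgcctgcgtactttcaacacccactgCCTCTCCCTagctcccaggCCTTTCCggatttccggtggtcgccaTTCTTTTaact
On that build the stretches are chr4:136053364-136053473 on the minus strand for Rpl11, chr11:97782410-97782519 minus for Rpl23, chr17:33824533-33824642 minus for Rps28, chr7:24884512-24884621 plus for Rps19, chr7:116334161-116334270 minus for Rps13, chr7:28350609-28350718 plus for Rps16, chr9:44407634-44407743 plus for Rps25, chr7:3703961-3704070 plus for Rps9 and chr16:10170148-10170257 plus for Rpl39l. Each covers the promoter and the first transcribed bases; Rps19 has 3 listed starts, and the first is shown. Rpl3 has no window.

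The printed stretches differ in what they hold. In Rpl11 the marked core lies just past the start and runs straight into a pyrimidine run of 17 bases. Rps25 has the core upstream and a run of 14 bases before the start. Rps9 has 1 run and Rpl39l has 3, while Rpl23, Rps28, Rps19, Rps13 and Rps16 show neither mark in this stretch. Over the whole windows, CCGGAAG on either strand was found in 21 of 50 genes (42%) against 9.12% of all 27025 genes with a window. A pyrimidine run of at least 7 bases on the transcribed strand within 30 bases of the start was found in 30 (60%) against 33.8%. The other motifs searched on both strands were the GC box GGGCGG, in 56% against 35.9%, the YY1 core AAGATGGC, in 6% against 2.88%, and TATAAA, in 12% against 14.2%. CCGGAAG and AAGATGGC can overlap in their shared letters, and the reverse complement of CCGGAAG contributes pyrimidines to a run. These are matches of letters in a window, not sites shown to be bound.

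Knockout neutrophils had higher levels of ribosomal protein genes than wild-type neutrophils. Of the 63 genes, 36 were higher (57.1%), 0 were lower and 27 did not pass (limma, adjusted p under 0.05 over all clusters), where 10.7% of all clusters were higher and 9.14% lower. The median change was 0.51 on the log2 scale, against -0.13 over all clusters, and 56 of the 63 changes were positive. Both subunits took part, with 15 of 24 small-subunit genes and 21 of 39 large-subunit genes higher. In 26 genes every KO array lay above every WT array, a pattern seen in 5.52% of all clusters. Rpl21 had the opposite pattern, seen in 5.86%.

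The wild-type neutrophil arrays also stood apart in clusters that encode no ribosomal protein. Across 2260 other clusters that were bright on every macrophage and microglia array (log2 11 or more), WT neutrophil arrays had medians of 12.38 to 12.91, KO neutrophil arrays of 12.85 to 13.18 and the remaining arrays of 13.26 to 13.47. Of those clusters, 26, 129, 144 and 251 lay over 3 log2 units under the mean level in the other cell types on WT neutrophil arrays 1, 2, 3 and 4, against 7 to 31 on KO neutrophil arrays and at most 1 elsewhere. Both the clusters and that mean level were taken from the macrophage and microglia arrays. The gap from those arrays to neutrophils therefore follows in part from the choice, and only the WT and KO neutrophil arrays can be compared freely. With this median as a covariate, 3 of the 63 genes passed, Rpl6 and Rps28 higher and Rps9 lower, where 2.14% of all clusters passed. Centring each array on the same clusters, an alternative chosen after seeing the data, left 17 higher and 4 lower (Rpl10l, Rpl21, Rps16 and Rps9) and moved the median of all clusters from -0.13 to -0.51. A fit on the 9 neutrophil arrays alone called 18 higher, where 4.9% of all clusters passed. Whether the low reading of the WT neutrophil arrays reflects the cells or their RNA was not tested, and fewer cells of a type and less RNA per cell cannot be told apart in bulk samples.

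**Figure D1:**
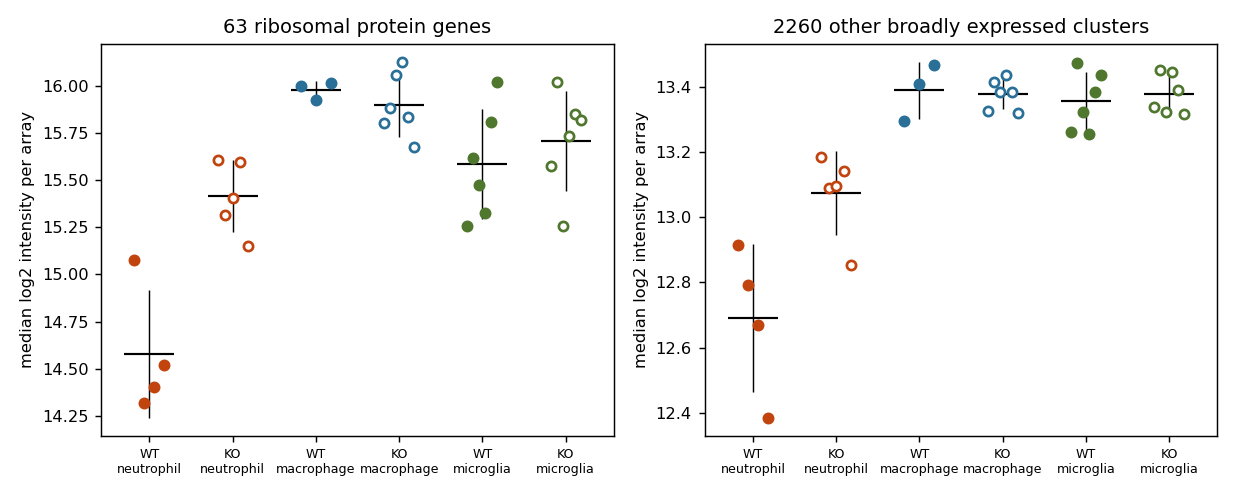
Each point is the median log2 intensity on 1 array of the 63 ribosomal protein genes (left) or of 2260 other broadly expressed clusters (right), with filled points for WT, open points for KO, a bar at the group mean and a line of ±1 SD. The WT neutrophil arrays are lowest in both panels, with ribosomal protein medians of 14.32 to 15.07 against 15.15 to 15.61 for the KO ones, and WT and KO neutrophils overlap only in the right panel. The 2260 clusters were chosen for brightness on the macrophage and microglia arrays.

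Cell type markers are given beside this result, against the 10.7% of all clusters that were higher in KO neutrophils and the 9.14% that were lower. Of 9 markers of neutrophils themselves, 0 were higher and 1 lower, none of the 9 differences was positive (median -0.74), and their list means were 13.13 to 16.3 on WT and 12.61 to 14.09 on KO arrays. Of 9 monocyte and macrophage markers, 4 were higher and 0 lower, with means of 11.46 to 12.77 on WT and 12.23 to 12.88 on KO arrays. Of 9 microglia markers, 1 was higher and 1 lower, with means of 8.72 to 10.16 and 9.11 to 10.57, shares near those of all clusters. Of 8 connective tissue markers, 4 were lower, with means of 7.82 to 10.46 on WT arrays, the top value on WT neutrophil 4, and 7.03 to 8.09 on KO arrays. The part of these markers in the ribosomal protein result was not tested. Leaving out WT neutrophil 4 gave 34 higher, and leaving out any other neutrophil array gave 28 to 39, the lowest without WT neutrophil 2.

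Rpl3, which reaches towards the catalytic centre of the large subunit, rose most. Its log2 intensity was 15.11, 14.10, 14.32 and 14.12 on the WT neutrophil arrays and 16.13, 15.66, 15.88, 15.73 and 15.15 on the KO arrays. The groups did not overlap, although WT neutrophil 1 and KO neutrophil 5 nearly met. The change was 2.46-fold (95% interval on the log2 scale 0.90 to 1.69, SE 0.19, limma adjusted p = 3.07e-05). In macrophages Rpl3 averaged 16.28 in WT and 16.31 in KO, so the KO neutrophils lay between WT neutrophils and the other cells.

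Rpl11 and Rpl5 join 5S ribosomal RNA in a particle that enters the large subunit and, when unassembled, binds the p53 inhibitor Mdm2. Rpl11 was 12.39, 11.68, 11.51 and 11.67 on WT and 13.21, 12.63, 13.25, 13.32 and 12.69 on KO neutrophil arrays, a rise of 1.21 (SE 0.27, adjusted p = 0.00246) with no overlap. Rpl5 rose by 0.87 (SE 0.20, adjusted p = 0.00284), with overlapping arrays. Both genes of the particle thus passed in the same direction, and neither passed with the covariate (Rpl11 0.42, adjusted p = 0.679; Rpl5 0.15, adjusted p = 0.856).

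Rpl23, a large-subunit protein on the face that meets the small subunit, was 13.81, 13.36, 12.98 and 12.97 on WT and 14.87, 14.20, 14.41, 14.67 and 14.08 on KO neutrophil arrays. It rose by 1.16 (SE 0.22, adjusted p = 0.000466), every KO array lying above every WT array. Rps28, a small-subunit protein near the exit of the messenger RNA, was 14.31, 13.79, 14.11 and 14.43 on WT and 15.61, 14.94, 15.21, 15.27 and 15.29 on KO arrays. Its rise of 1.11 (SE 0.17, adjusted p = 3.66e-05) stayed at 1.17 with the covariate (adjusted p = 0.00998). Rpl6, a large-subunit protein, had the smallest adjusted p of the 63 genes: 15.46, 15.17, 15.14 and 14.92 against 16.27, 15.84, 16.07, 16.24 and 16.08, a rise of 0.93 (SE 0.12, adjusted p = 4.68e-06) that was 0.69 with the covariate (adjusted p = 0.0172). In Rpl23, Rps28 and Rpl6 alike, no WT array reached the lowest KO array.

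Rpl4, Rpl15, Rps13, Rps15a and Rps4x also rose. Rpl4 was 15.39, 14.19, 14.41 and 14.50 on WT and 15.89, 15.57, 15.85, 15.48 and 15.36 on KO neutrophil arrays, a rise of 1.01 (SE 0.16, adjusted p = 8.52e-05). Its groups overlapped only because WT neutrophil 1 lay just above the lowest KO array. Rps15a was 13.65, 13.22, 13.43 and 12.67 against 14.26, 13.98, 14.21, 14.43 and 14.20, a rise of 0.98 (SE 0.19, adjusted p = 0.00054) with no overlap. Rps4x, the X-linked form of S4, was 14.55, 13.60, 13.67 and 14.29 against 15.12, 14.89, 15.14, 15.09 and 14.66 (0.95, SE 0.17, adjusted p = 0.000241), again with no overlap. In Rpl3, Rpl4, Rpl15 and Rps4x the same WT array, WT neutrophil 1, was the highest of its group; it is also the WT neutrophil array with the highest level of other broadly expressed clusters.

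The stalk of the large subunit, which recruits elongation factors, was measured through Rplp0 and Rplp1. Neither passed, Rplp0 with a change of 0.65 (SE 0.39, adjusted p = 0.236) and Rplp1 with 0.42 (SE 0.15, adjusted p = 0.0506). Rplp1 lay so near the threshold that several alternatives put it across, among them median centring (0.54, adjusted p = 0.014) and array weights (0.59, adjusted p = 0.00733). Rps6, the substrate of the S6 kinases below mTOR, was 16.45, 16.09, 16.15 and 16.39 on WT and 16.89, 16.69, 16.72, 16.71 and 16.66 on KO neutrophil arrays, a rise of 0.46 (SE 0.15, adjusted p = 0.0315). Rpsa, also known as the laminin receptor, rose by 0.45 (SE 0.12, adjusted p = 0.0107). In both genes all KO arrays lay above all WT arrays, and both calls ended with the covariate and in the fit on neutrophils alone. With the covariate the Rpsa change kept its size (0.47, adjusted p = 0.188), while that of Rps6 was 0.29 (adjusted p = 0.623). The Rps6 call also ended without WT neutrophil 2 or 3 or KO neutrophil 1, 3 or 4 (adjusted p up to 0.0858), and the Rpsa call without WT neutrophil 2 (adjusted p = 0.0676).

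Paralogues divided. Rpl22l1, a copy of Rpl22 whose level Rpl22 is known to restrain, rose by 0.98 (SE 0.21, adjusted p = 0.00136), and Rpl22 itself rose by 0.48 (SE 0.17, adjusted p = 0.0471). Rps27l, a p53 target, rose by 0.60 (SE 0.16, adjusted p = 0.00832). Rpl7l1, which acts in ribosome assembly, had a difference of 0.75 (SE 0.35, adjusted p = 0.132) and Rps4l, a copy of Rps4x that RefSeq lists as a transcribed pseudogene, one of 0.58 (SE 0.39, adjusted p = 0.299), both short of the threshold with wide errors. The muscle form Rpl3l (-0.06, adjusted p = 0.823) and the testis forms Rpl10l (-0.30, adjusted p = 0.149) and Rpl39l (-0.52, adjusted p = 0.56; 0.42 without WT neutrophil 4) did not pass either. Rpl3l, Rpl10l and Rpl39l were thus among the 7 genes without a positive change. On the neutrophil arrays Rpl3l read 5.64 to 6.42 and Rpl10l 6.91 to 7.56. Rpl39l read 6.38 to 7.69 except on WT neutrophil 4. Whether such low values exceeded background was not analysed here, so a rise in these genes might not have been seen.

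The genes that did not rise are as much a feature of the data. Rps9, a small-subunit protein at the entry of the messenger RNA, was 15.78, 15.79, 15.40 and 15.09 on WT and 14.92, 15.29, 15.02, 15.14 and 14.83 on KO neutrophil arrays, a change of -0.48 (SE 0.22, adjusted p = 0.126). With the covariate the change was -1.11 (adjusted p = 0.0288). Rpl21 was 14.39, 14.10, 14.12 and 13.98 against 13.80, 13.60, 13.95, 13.87 and 13.92, -0.32 (SE 0.13, adjusted p = 0.066), and its groups did not overlap. Rps16 stayed at 16.81 ± 0.13 (SD, n = 4) in WT and 16.78 ± 0.05 (n = 5) in KO neutrophils, with a 95% interval for the difference of -0.30 to 0.24. Rps25, with an SD of 0.15 over the 30 arrays, and Rpl37a, with 0.16, were the other genes that varied least, next to Rps16 at 0.15.

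**Figure D2:**
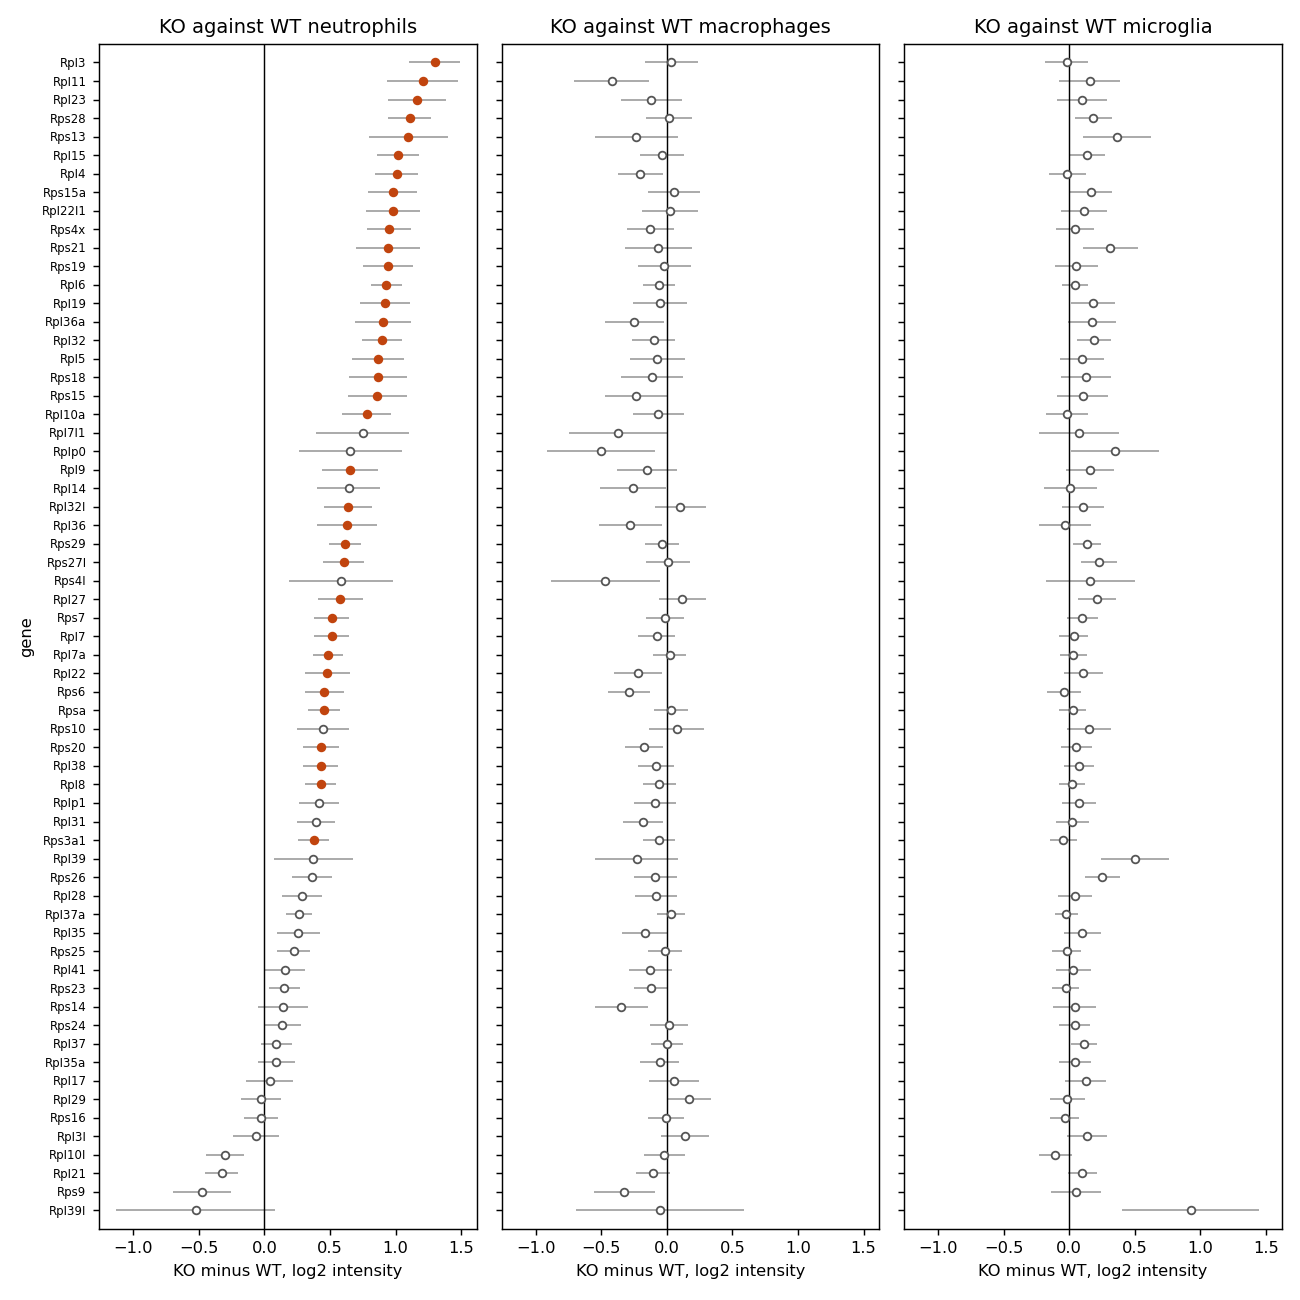
Change in log2 intensity from WT to KO (horizontal axis) for each of the 63 genes (vertical axis) in neutrophils, macrophages and microglia, with lines of ±1 SE and filled points for genes that passed. Filled points occur in the neutrophil panel alone, where 36 genes passed, and the same order of genes shows no trend of that size in the other panels.

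The difference from other clusters was also seen at like brightness. Among clusters with a mean log2 of 12 to 14, the 9 ribosomal protein genes had a median change of 0.92 in neutrophils against 0.38 for 1437 others; at 14 to 16 it was 0.76 for 22 genes against 0.40 for 580; at 16 or more, 0.42 for 23 against 0.22 for 111; and below 12, 0.58 for 9 against -0.15 for 19912. Of the other clusters at 12 or more, 32.2% to 39.7% were higher in KO neutrophils too, with smaller median changes. The promoter marks did not separate the genes that rose: 12 of 21 genes with CCGGAAG and 17 of 29 without it were higher, as were 17 of 30 with a pyrimidine run and 12 of 20 without one.

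Other lists of the protein-making machinery are read against the same shares of all clusters, 10.7% higher and 9.14% lower. Of 19 other messengers with a pyrimidine start, 9 were higher and 0 lower (median 0.50), among them Eif3e, a subunit of initiation factor eIF3 (1.38, SE 0.19, adjusted p = 1.34e-05), and Nap1l1, a histone chaperone (1.33, SE 0.21, adjusted p = 4.8e-05). Of 21 initiation factors, 11 were higher and 0 lower (median 0.83), with Eif5b, which joins the subunits, at 1.15 (adjusted p = 0.000224) and Eif3c at 1.49 (adjusted p = 0.000226). Of 12 elongation and termination factors, 5 were higher and 0 lower (0.67). Of 32 genes of ribosome assembly, 15 were higher and 0 lower (0.77), including Rrn3, which brings RNA polymerase I to ribosomal DNA, at 1.92 (SE 0.25, adjusted p = 6.89e-06), and Ltv1, a factor of small-subunit assembly, at 1.10 (SE 0.15, adjusted p = 1.18e-05). Among 8 chaperones of new ribosomal proteins, 1 passed, as higher (median 0.39), a share near that of all clusters.

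Genes that govern ribosome production went both ways. Of 17, 5 were higher and 2 lower (median 0.14), the share lower being near that of all clusters. Myc, which drives ribosome synthesis, was higher by 2.75 (SE 0.56, adjusted p = 0.000944), and Larp1, the protein that holds back pyrimidine-start messengers, by 1.05 (SE 0.22, adjusted p = 0.00121). Max, the partner of Myc, was lower by 0.70 on the log2 scale. Gene groups outside the cytosolic ribosome moved as well: 38 of 76 mitochondrial ribosomal proteins were higher and 1 lower (0.79), and 21 of 38 proteasome subunits were higher and 0 lower (0.80). The share of ribosomal protein genes that rose is therefore not set apart from these groups by any test here, and the low reading of the WT neutrophil arrays given above applies to every one of them.

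In macrophages and microglia no ribosomal protein gene passed between genotypes. In macrophages 0 of 63 passed with limma, 0 had an unadjusted p under 0.05, and the changes ran from -0.50 to 0.17 with a median of -0.07; 1 of all clusters passed (0.00452%). In microglia 0 passed with limma, 0 had an unadjusted p under 0.05, and the changes ran from -0.11 to 0.93 with a median of 0.10, where 0 clusters of all passed (0%); without KO microglia 2 and 4 the count was 0 as well. The smallest p in macrophages belonged to Rps6 (-0.29, 95% interval -0.61 to 0.03) and Rps14 (-0.35, -0.76 to 0.07), and in microglia to Rpl39 (0.50, -0.02 to 1.03) and Rps26 (0.25, -0.02 to 0.52). For Rpl3, the gene with the largest rise in neutrophils, the groups averaged 16.28 and 16.31 in macrophages and 16.23 and 16.22 in microglia.

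Whether the genotypes differed more in one type of cell than in another was tested directly. The change in neutrophils exceeded that in microglia for 10 genes and fell short of it for 0, where 4.06% of all clusters exceeded and 1.73% fell short. It exceeded that in macrophages for 18 genes and fell short for 0, against 4.36% and 2.51%. Rpl3 differed by 1.32 from microglia (SE 0.25, adjusted p = 0.0024) and by 1.26 from macrophages (SE 0.28, adjusted p = 0.00847), and Rpl4, a core protein of the large subunit, by 1.03 (adjusted p = 0.00478) and 1.21 (adjusted p = 0.00417). Rpl11 differed from macrophages by 1.62 (SE 0.39, adjusted p = 0.0136) and Rps28 from microglia by 0.92 (SE 0.22, adjusted p = 0.0117). With the level of broadly expressed clusters as a covariate, 0 genes passed in either test. Between macrophages and microglia 0 genes differed with limma, and 0 had an unadjusted p under 0.05.

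Wild-type neutrophils held the lowest group mean for 54 of the 63 genes. The highest mean was in a macrophage group for 46, in a microglia group for 10 and in a neutrophil group for 7. Per array, WT neutrophils had a median over the 63 genes of 14.58 ± 0.34 (SD, n = 4) and KO neutrophils of 15.41 ± 0.19 (n = 5), followed by 15.98 ± 0.05 (n = 3) and 15.90 ± 0.17 (n = 6) in WT and KO macrophages, and 15.58 ± 0.29 (n = 6) and 15.71 ± 0.26 (n = 6) in WT and KO microglia. The ranges of the macrophage and microglia groups overlapped.

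**Figure D3:**
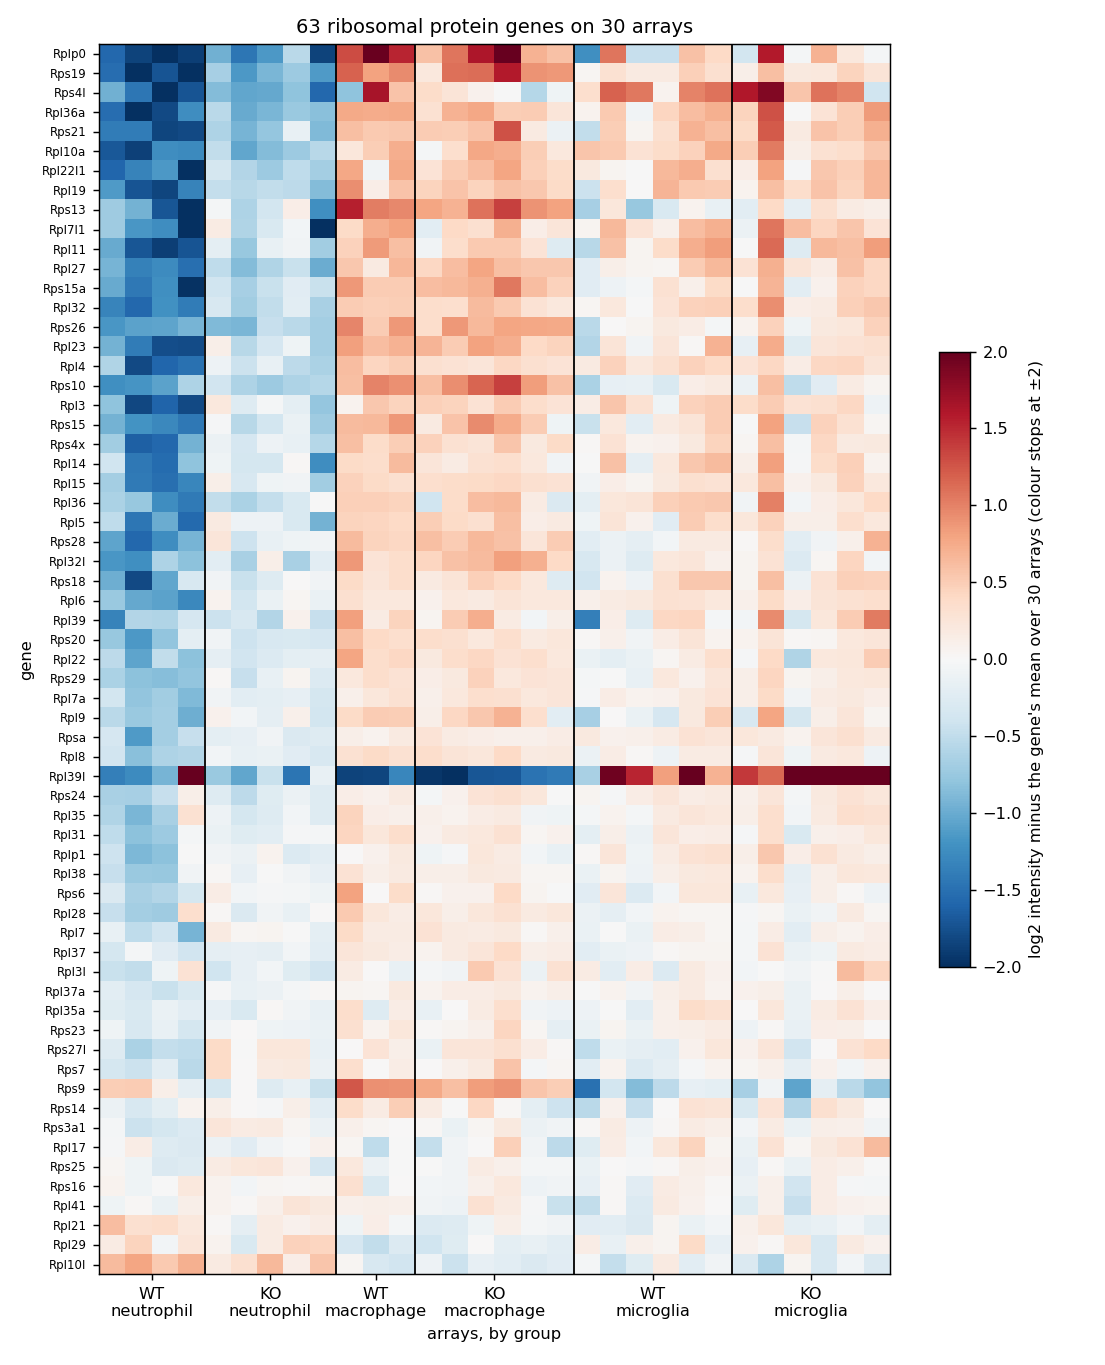
Log2 intensity of each of the 63 genes (rows) on each of the 30 arrays (columns, by group), as the difference from that gene's mean over all arrays; red is above and blue below that mean, and the colour stops at ±2. WT neutrophil columns are blue in most rows, and Rps9, Rpl39l, Rpl21, Rpl29 and Rpl10l break the common pattern.

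Against WT microglia, WT neutrophils had 47 of the 63 genes lower and 3 higher (median -0.83), where 32.3% of all clusters were lower and 22% higher. Against WT macrophages, 52 were lower and 3 higher (median -1.20), where 22% of all clusters were lower and 29.6% higher. Bright clusters were lower more often, here by mean log2 of 12 to 14, 14 to 16 and 16 or more. Against WT microglia, 54.1%, 57.1% and 39.6% of other clusters in these bands were lower. The ribosomal protein genes were lower in 8 of 9, 17 of 22 and 16 of 23. Against WT macrophages it was 51.3%, 56.9% and 31.5% of others, and 8 of 9, 19 of 22 and 19 of 23 genes. With the covariate 20 of the 63 genes were lower and 2 higher against microglia, and 20 lower and 0 higher against macrophages. Centred on the broadly expressed clusters, the splits were 26 lower and 16 higher against microglia and 33 lower and 9 higher against macrophages. Those clusters were chosen on the macrophage and microglia arrays and had lower medians in neutrophils, so centring on them raised the neutrophil arrays. In KO cells, 36 genes were lower and 1 higher against microglia (median -0.40; 32% of all clusters lower, 13% higher), and 36 lower and 2 higher against macrophages (median -0.45; 15.8% lower, 15.9% higher). In the same 3 bands, 37.5%, 37.1% and 18% of other clusters were lower than in KO microglia, and 28.5%, 25.2% and 9.01% than in KO macrophages. The genes were lower in 7 of 9, 13 of 22 and 8 of 23, and in 7 of 9, 16 of 22 and 8 of 23. With the covariate the KO splits were 17 lower and 1 higher, and 18 lower and 0 higher. Without KO microglia 2 and 4, the arrays with neutrophil markers, 25 were lower and 2 higher than in KO microglia. The shares of all clusters that passed with the covariate, with centring or without those arrays are not given here. These splits therefore cannot be set against all clusters. The WT and KO comparisons share no array: 34 genes were lower than microglia in both, 72.3% of the WT list and 94.4% of the KO list, and 36 were lower than macrophages in both, 69.2% and 100%. The overlap over all clusters was not counted, so these shares are not shown to be particular to the 63 genes.

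Rps19, a small-subunit protein whose loss causes Diamond-Blackfan anaemia in people, had one of the widest gaps. Its log2 intensity was 10.60, 10.01, 10.40 and 10.06 in WT neutrophils, 11.46, 10.98, 11.22, 11.39 and 10.99 in KO neutrophils, and 13.31, 12.93 and 13.07 in WT macrophages. In KO macrophages it ran from 12.34 to 13.71 with a median of 13.12. WT microglia ran from 12.16 to 12.61 with a median of 12.37, and KO microglia from 12.24 to 12.72 with a median of 12.36. All neutrophil arrays therefore lay below all others. WT neutrophils were lower than WT macrophages by 2.84 on the log2 scale (limma, adjusted p = 2.63e-11) and than WT microglia by 2.11 (adjusted p = 7.01e-11).

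Of the 63 genes, 11 were lower in neutrophils in all 4 comparisons with the level of broadly expressed clusters as a covariate: Rpl10a, Rpl19, Rpl22l1, Rpl28, Rpl32, Rpl35, Rpl36a, Rps19, Rps20, Rps24 and Rps26. How many of all clusters were lower in all 4 was not counted, so these 11 are not set apart from them. Rpl36a was 11.77, 11.03, 11.49 and 12.06 in WT and 12.75, 12.29, 12.38, 12.56 and 12.46 in KO neutrophils, against 14.06, 14.04 and 14.05 in WT macrophages and 13.24 to 14.01 in WT microglia (median 13.78). No neutrophil array reached another cell type. WT neutrophils were lower than WT microglia by 2.10 on the log2 scale (SE 0.21, adjusted p = 8.55e-10), and the difference was -1.99 with the covariate (adjusted p = 0.00126).

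Rpl10a, a protein of the large-subunit stalk that clears spent transfer RNA, was 11.67, 11.49, 12.11 and 12.09 in WT and 12.86, 12.32, 12.49, 12.63 and 12.81 in KO neutrophils. WT microglia ran from 13.65 to 14.11 (median 13.85), and the difference of -2.01 from WT neutrophils was the same with the covariate (-2.01, adjusted p = 0.000284). Rps26, which lines the exit of the messenger RNA, showed 3 levels: 13.62, 13.72, 13.72 and 13.85 in WT neutrophils, 14.24 to 14.97 in WT microglia (median 14.81), and 15.76, 15.30 and 15.65 in WT macrophages. WT macrophages exceeded WT microglia by 0.82 (SE 0.16, adjusted p = 0.000237) and WT neutrophils were lower than WT microglia by 1.02 on the log2 scale (SE 0.15, adjusted p = 1.18e-06). Both differences kept their size with the covariate (0.82, adjusted p = 0.000249, and -1.05, adjusted p = 0.0159).

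Rplp0, the base of the stalk and often used as a reference gene, averaged 9.09 on its cluster, where Rplp1 averaged 16.57. The Rplp0 cluster varied more over the 30 arrays (SD 1.25) than any of the 63 genes but Rpl39l (1.74). It was 7.53, 7.24, 7.01 and 7.22 in WT neutrophils, 8.13, 7.65, 7.95, 8.56 and 7.24 in KO neutrophils, and 10.40, 11.07 and 10.62 in WT macrophages. KO macrophages ran from 9.68 to 11.13 (median 9.98), WT microglia from 7.87 to 10.16 (9.07) and KO microglia from 8.72 to 10.68 (9.18). WT macrophages exceeded WT microglia by 1.61 (SE 0.41, adjusted p = 0.00265), and WT neutrophils were lower than WT macrophages by 3.45 on the log2 scale (adjusted p = 4.49e-07). With the covariate this last difference was -1.24 (adjusted p = 0.311). The WT neutrophil values of Rplp0 lay near the median of all values, 6.69, with no background level analysed here. How well this cluster reports the level of Rplp0 was not tested. Rps4l, next in SD at 1.11, was lower in WT neutrophils than in WT microglia by 2.43 on the log2 scale (adjusted p = 3.26e-06), or -0.59 with the covariate (adjusted p = 0.588).

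Few of the genes were higher in neutrophils. Rpl10l, the testis form of Rpl10, was 7.41, 7.56, 7.31 and 7.49 in WT and 6.95, 7.10, 7.42, 6.91 and 7.33 in KO neutrophils, while WT macrophages were at 6.56 ± 0.23 (SD, n = 3) and WT microglia at 6.63 ± 0.22 (n = 6). Those means lie below the median of all values, 6.69, with no background level analysed here, which makes the differences that follow at best lower bounds. Rpl10l passed as higher in neutrophils in all 4 comparisons, by 0.60 to 0.88, and in none of them with the covariate (0.27 to 0.37, adjusted p 0.0783 to 0.583). Rpl21 was higher in WT neutrophils than in WT microglia by 0.51 (SE 0.12, adjusted p = 0.00065), a call that held with the covariate (0.77, adjusted p = 0.0236). Rpl29, also known as a heparin-binding protein, was higher in neutrophils than in macrophages by 0.56 in WT (adjusted p = 0.00868) and 0.36 in KO cells (adjusted p = 0.045), neither with the covariate. The KO call ended when any of 9 of the 11 arrays was left out (adjusted p up to 0.137), all but KO neutrophil 2 and KO macrophage 3.

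Macrophages exceeded microglia for a group made mostly of small-subunit genes. In WT cells 12 genes were higher and 2 lower (median 0.24), where all clusters were 9.62% higher and 27.9% lower, with a median of -0.25. Of the 12, 8 belong to the small subunit, 8 of its 24, against 4 of 39 large-subunit genes. In KO cells 8 were higher and 2 lower (median 0.05; 11.8% of all clusters higher, 31.4% lower). The 8 genes Rpl32l, Rps10, Rps13, Rps15a, Rps19, Rps26, Rps28 and Rps9 were higher in both genotypes, 66.7% of the WT list and 100% of the KO list, with the overlap over all clusters not counted. These counts moved with scaling: with each array centred on its median, which moved the median of all clusters from -0.25 to 0.15 in WT cells, 47 genes were higher and 1 lower in WT and 42 higher and 1 lower in KO cells. Without WT macrophage 1 the WT count of genes that passed in either direction was 7 and without WT microglia 1 it was 9, against 14. Without KO microglia 2 and 4, 10 genes were higher and 1 lower in KO cells.

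Rps9 showed this most clearly. It was 16.52, 16.19 and 16.17 in WT macrophages and 15.77 to 16.18 in KO macrophages (median 15.96), against 13.78 to 15.12 in WT microglia (median 14.84) and 14.22 to 15.21 in KO microglia (median 14.68). No macrophage array overlapped a microglia array. The difference was 1.62 (SE 0.23, adjusted p = 2.53e-06) in WT and 1.24 (SE 0.19, adjusted p = 4.48e-06) in KO cells. Unlike most of the genes, its level in WT neutrophils also lay above that in WT microglia, by 0.84 (SE 0.21, adjusted p = 0.0015), and by 1.94 with the covariate (adjusted p = 0.000486). Rps13, a small-subunit protein, was 14.77, 14.25 and 14.18 in WT macrophages and 12.48 to 13.45 in WT microglia, a difference of 1.44 (SE 0.31, adjusted p = 0.000613), and of 0.84 (SE 0.26, adjusted p = 0.00886) in KO cells. Rps10, which contacts the messenger RNA at its entry, differed by 0.99 (adjusted p = 0.000402) and 0.92 (adjusted p = 6.61e-05).

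Rpl39l ran the other way and was brightest in microglia. This testis form of Rpl39 was 5.99, 6.00 and 6.52 in WT macrophages and 5.79 to 6.42 in KO macrophages (median 6.13), against 7.18 to 10.74 in WT microglia (median 9.01) and 8.98 to 11 in KO microglia (median 9.97). Every microglia array lay above every macrophage array. The measured values in macrophages were lower by 2.87 on the log2 scale in WT (SE 0.64, adjusted p = 0.000699) and by 3.85 in KO cells (SE 0.52, adjusted p = 5.28e-07). All macrophage values lay below the median of all values on the arrays, 6.69, and whether they exceed background was not analysed here. The size of these differences is therefore at best a lower bound. In neutrophils it was 6.46, 6.58, 6.91 and 10.43 in WT and 6.38 to 7.69 in KO cells, so 1 WT array, WT neutrophil 4, reached the level of microglia. That array is also the one with the highest connective tissue markers. The rise from WT to KO microglia, 0.93 (95% interval -0.14 to 1.99), did not pass (adjusted p = 1).

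**Figure D4:**
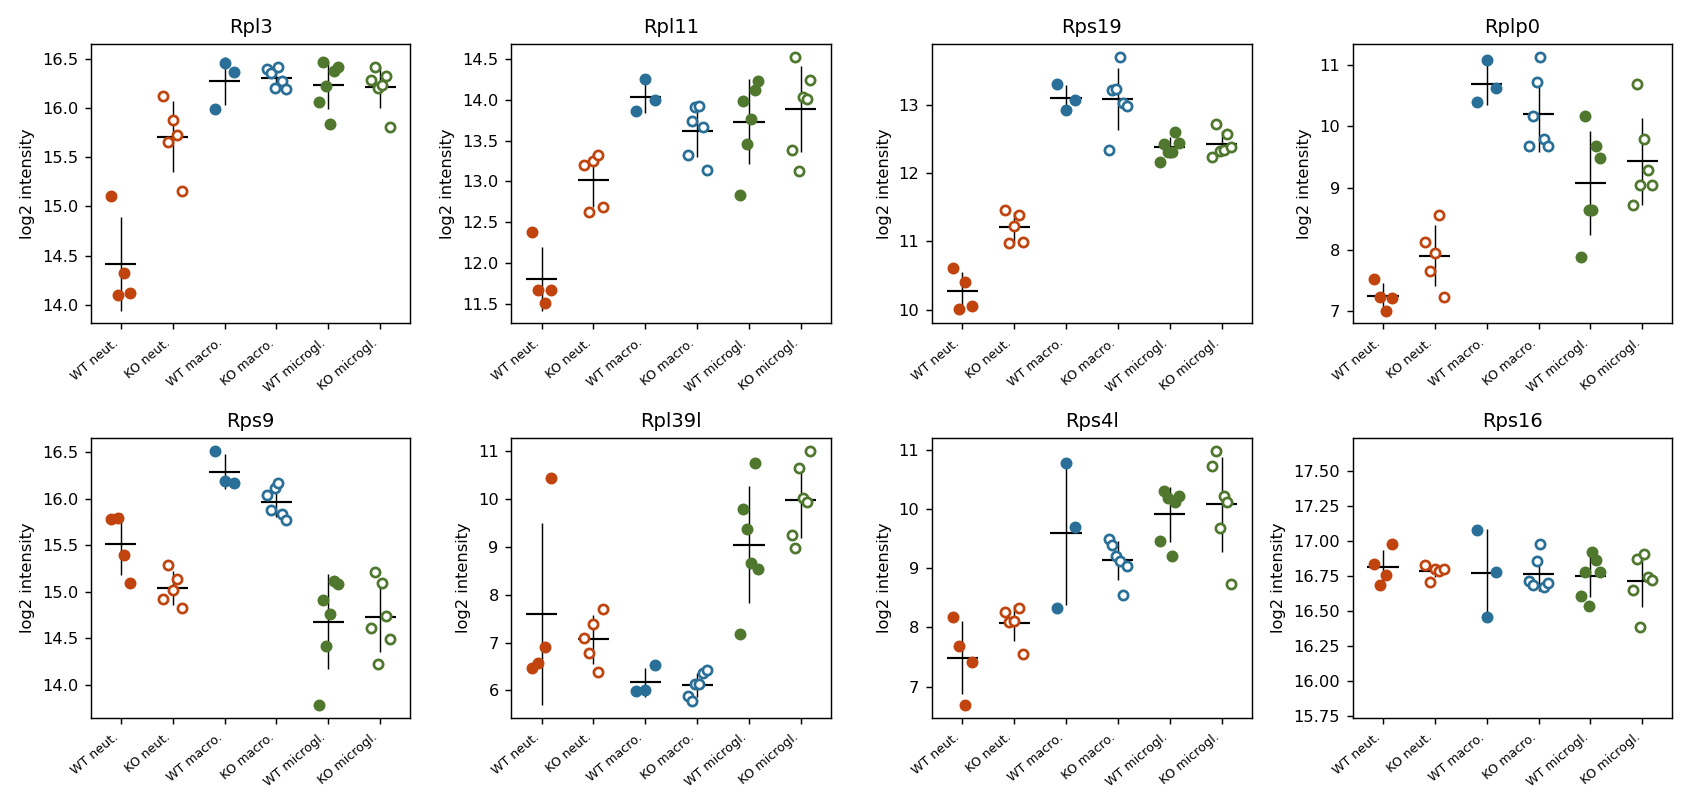
Log2 intensity of 8 of the genes on each array, by group (neut., neutrophils; macro., macrophages; microgl., microglia), with filled points for WT, open points for KO, a bar at the group mean and a line of ±1 SD; the genes were chosen after the values were seen, and each panel has its own axis. Rpl3, Rpl11, Rps19 and Rplp0 are lowest in WT neutrophils, Rps9 is highest in macrophages, Rpl39l and Rps4l have their highest means in microglia, and Rps16 stays between 16.39 and 17.08 on all arrays.

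Many of these values may carry signal from copies of a gene. RefSeq names at least 1 pseudogene for 45 of the 63 genes, and up to 24 for a single gene, and Rps4l is itself listed as a transcribed pseudogene. The files do not say which probes of a cluster match such copies, so the share of their signal in these levels was not tested.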

How the data were processed

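RNA from sorted cells was hybridised to Affymetrix Clariom HT arrays; per the labels' protocols, its integrity number was above 7.5. The authors deposited linear intensities, from 5.62 to 438297, made with RMA per the submitters' processing notes; this method includes a normalization between arrays, and which arrays were processed together is not given in the sources used here. Log2 was taken with no pseudocount or filter. Symbols came from the platform annotation and were matched by gene number to RefSeq. The brightest cluster per gene was used; each of the 63 genes had 1 cluster.

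Arrays were grouped by the labels' genotype and cell type. A linear model with group means over the 30 arrays (limma 3.58.1, R 4.3.3, 24 residual degrees of freedom) gave each comparison, and p-values were Benjamini-Hochberg adjusted within each comparison over all 22103 clusters; every adjusted p in the text is from limma. The fit was tested on simulated data. The number of arrays limits the precision.

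The genes named were those with the largest changes that passed (up to 4 in each direction), or the 2 smallest p where none passed, genes with a set role (stalk, 5S particle, signalling, Rpsa, paralogues), those with the 3 largest and 3 smallest SD, and up to 2 per list. Further genes of these tables, the promoters printed and the panels plotted were chosen after their values were seen. The 63 genes and the lists were chosen with earlier results of these data known. Alternatives were other normalizations, array weights, a variance trend, filters, smaller fits, a replicate block, the level of broadly expressed clusters as a covariate, and each array left out in turn; 2 were added after seeing the data. Plots used matplotlib 3.10.9 (Python 3.11.15).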

Additional observations from a re-analysis of the deposited data

Results flagged for a closer look

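In groups of 4 to 6 arrays the genes given by role, change or spread were searched for an array far from the rest with the Dixon test. Of 145 groups tested, 7 held one, near the 1 in 20 that chance gives. Rpl39l on WT neutrophil 4 was at 10.43 where the other 3 arrays were at 6.46 to 6.91. Rpl3 on KO microglia 6 was at 15.81, below the others at 16.21 to 16.42, and Rps26 on WT microglia 1 at 14.24, below 14.74 to 14.97. Rps28 on KO macrophage 5 was at 15.61, below 15.86 to 16. Rps6 was high on KO neutrophil 1 (16.89 against 16.66 to 16.72) and on KO macrophage 4 (17.13 against 16.73 to 16.83), and Rpsa was high on KO macrophage 1 (17.39 against 17.21 to 17.28).

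The change with genotype differed between cell types by the interaction test for the genes named for it. It was larger in neutrophils than in microglia for Rpl3 (1.32), Rpl23 (1.06), Rpl4 (1.03) and Rps28 (0.92). The Rpl23 call there ended without WT neutrophil 3 or 4 or KO neutrophil 1 or 4 (adjusted p up to 0.0662). It was larger in neutrophils than in macrophages for Rpl11 (1.62), Rpl23 (1.28), Rpl3 (1.26) and Rpl4 (1.21). None of these 8 differences passed with the level of broadly expressed clusters as a covariate, where adjusted p was 0.0998 to 0.68.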

How the results depend on the processing

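In the comparisons of genotypes within macrophages and microglia, and in the difference between macrophages and microglia, 0 genes passed under every alternative run. Among the genes named for each comparison, no called gene changed sign. Changes of sign in the remaining genes were not checked. The counts of genes passed that moved by more than 1.5 times were as follows. For KO against WT neutrophils, 36 became 18 in a fit on those arrays alone, 3 with the level of broadly expressed clusters as a covariate and 21 with arrays centred on those clusters. With the covariate, WT neutrophils against microglia went from 50 to 22 and against macrophages from 55 to 20, and KO neutrophils from 37 to 18 and from 38 to 18. With arrays centred on the broadly expressed clusters, the KO counts were 24 and 24. With arrays centred on their medians, macrophages against microglia went from 14 to 48 in WT and from 10 to 43 in KO cells, and KO neutrophils against microglia from 37 to 23. The difference between neutrophils and microglia in the change with genotype went from 10 to 18 with median centring, 16 with array weights, 3 with the replicate block, 0 with the covariate and 5 with broad centring. That between neutrophils and macrophages went from 18 to 10 with quantile normalization over all arrays, 31 with median centring, 5 with the replicate block, 0 with the covariate and 8 with broad centring. The cause of these moves was not tested. Apart from those given above, shares of all clusters under these settings are not given here.

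Leaving out 1 array at a time gave 28 to 39 for KO against WT neutrophils. It gave 47 to 54, 7 to 15 and 52 to 55 for neutrophils against microglia, macrophages against microglia and neutrophils against macrophages in WT cells, and 29 to 40, 8 to 11 and 32 to 38 in KO cells. The difference from microglia in the change with genotype ran from 6 (without KO neutrophil 1 or 4) to 19 (without WT neutrophil 1), and that from macrophages from 9 to 26, with 9 to 11 when KO neutrophil 1, 3 or 4, WT macrophage 3 or KO macrophage 6 was left out. Without KO microglia 2 and 4, KO neutrophils against microglia gave 27, KO macrophages against microglia 11 and the difference from microglia 14. Same-numbered arrays were not treated as paired in the main fit. Over 9 pairs of groups, the correlation of same-numbered deviations ran from -0.20 to 0.26, and 0 pairs of groups had all above 0.1. Differently numbered arrays were not correlated for reference, so these values cannot tell whether same-numbered arrays came from the same mice. With the replicate block, 33 genes passed for KO against WT neutrophils. Taking all rows with a member symbol in place of the brightest gives the same 63 rows. Signal over background per array was not analysed here.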
